A study of Mus musculus with 14 samples.

Results

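The genes described are 43 interferon-stimulated effector genes of the mouse, chosen by name as genes whose products act downstream of interferon. Of these, 41 had a probe under that name on the array, out of 36413 gene names in all; Ifi27 and Ifi205 were not matched by name and were not analysed here. The 39 members tested were well above background on both arrays of at least 1 group, 30 of them in all 7 groups, and Ddx60 and Epsti1 were not tested. The cells were D2A1, a breast cancer line from the mouse, here called tumor cells, and mouse embryonic fibroblasts (MEFs) of genotype Hsf1 -/- (null) or Hsf1 +/+ (WT). Hsf1 encodes the heat shock transcription factor. The 7 groups of 2 arrays were tumor cells co-cultured with null MEFs, tumor cells co-cultured with WT MEFs, tumor cells alone, null MEFs co-cultured with tumor cells, null MEFs alone, WT MEFs co-cultured with tumor cells, and WT MEFs alone. Cells stayed in DMEM with 10% FCS for 72 hours and co-cultured cells were then sorted apart. The MEFs that partnered profiled tumor cells had first been treated with mitomycin C, an agent that stops cell division, at 10 ug/ml for 2 hours, and the tumor cells grown alone had no MEF partner, treated or not. The labels do not say how many embryos or lines gave the MEFs of each genotype, so genotype cannot be told apart from the MEF stock, nor do they say whether the replicates were separate cultures. The spread behind each p-value is therefore that of these arrays and may be technical.

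Type I interferons bind a receptor shared by most cells and activate transcription factors that bind the interferon-stimulated response element (ISRE) in promoters. The genes switched on in this way encode effectors that modify proteins, bind foreign RNA, block viral entry and budding or feed back on the signal. In breast tumors and in fibroblasts these genes are known as a readout of interferon signalling and of sensed nucleic acid.

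Promoter sequence was taken from RefSeq on build GRCm38.p6, which listed a start for 31 of the 41 members under the same symbol or a synonym. GAAA, then any 2 bases, then GAAA, the core repeat of the ISRE, was searched on both strands in the 250 bases before each start. These letters occurred at the first listed start of 8 of the 31 members (25.8%), and in 2.98% of all 32851 promoters of that length. The letters TTCNNNGAA, the core of the gamma-activated site, occurred in 5 of the 31 members (16.1%) and in 7.02% of all promoters. The 160 bases before the start are shown for 5 members with the ISRE letters. Isg15, Ifit1, Ifit3 and Bst2 are shown because they changed strongly, and Ifitm2 because it holds the letters and had the smallest change of all members. Capitals mark the matches, some of which overlap, and each sequence runs 5′ to 3′ on the gene's strand. They lie at chr4:156200819-156200978 on the minus strand (Isg15), chr19:34640729-34640888 on the plus strand (Ifit1), chr19:34583369-34583528 on the plus strand (Ifit3), chr8:71537473-71537632 on the minus strand (Bst2) and chr7:140955962-140956121 on the minus strand (Ifitm2).
Isg15: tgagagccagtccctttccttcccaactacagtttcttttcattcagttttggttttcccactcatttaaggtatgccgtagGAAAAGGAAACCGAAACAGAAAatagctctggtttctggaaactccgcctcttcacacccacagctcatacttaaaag
Ifit1: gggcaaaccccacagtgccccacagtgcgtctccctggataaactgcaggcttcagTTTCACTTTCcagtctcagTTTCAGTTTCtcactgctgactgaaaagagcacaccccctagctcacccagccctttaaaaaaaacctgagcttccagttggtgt
Ifit3: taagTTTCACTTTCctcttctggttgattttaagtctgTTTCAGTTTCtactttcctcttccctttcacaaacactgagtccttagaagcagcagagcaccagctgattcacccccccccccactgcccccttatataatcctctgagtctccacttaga
Bst2: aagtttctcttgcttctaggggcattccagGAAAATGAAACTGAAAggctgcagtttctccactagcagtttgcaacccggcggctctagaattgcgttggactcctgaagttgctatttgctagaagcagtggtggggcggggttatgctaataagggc
Ifitm2: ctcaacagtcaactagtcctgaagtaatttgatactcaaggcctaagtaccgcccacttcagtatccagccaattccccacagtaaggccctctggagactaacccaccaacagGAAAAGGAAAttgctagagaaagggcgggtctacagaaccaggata
Isg15 held 3 overlapping matches beginning 78, 72 and 66 bases before the start, and Bst2 held 2 overlapping ones at 130 and 124 bases. Ifit1 held 2 matches at 104 and 85 bases, Ifit3 2 at 156 and 122 bases, and Ifitm2 1 at 46 bases. A match describes these letters only, and binding was not measured.

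Over the 39 members tested, the median of the group means was a log2 level of 13.84 in tumor cells with null MEFs, 10.64 in tumor cells with WT MEFs and 9.86 in tumor cells alone. It was 13.31 in null MEFs with tumor cells, 11.94 in null MEFs alone, 10.96 in WT MEFs with tumor cells and 10.46 in WT MEFs alone. Tumor cells with null MEFs were the highest group for 28 of the 39 members and null MEFs with tumor cells for 9. Tumor cells alone were the lowest group for 30. All 39 were well above background in tumor cells with null MEFs, 36 in tumor cells with WT MEFs and 30 in tumor cells alone. These counts were not taken over all genes, and the filter kept only members above background in some group.

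**Figure D1:**
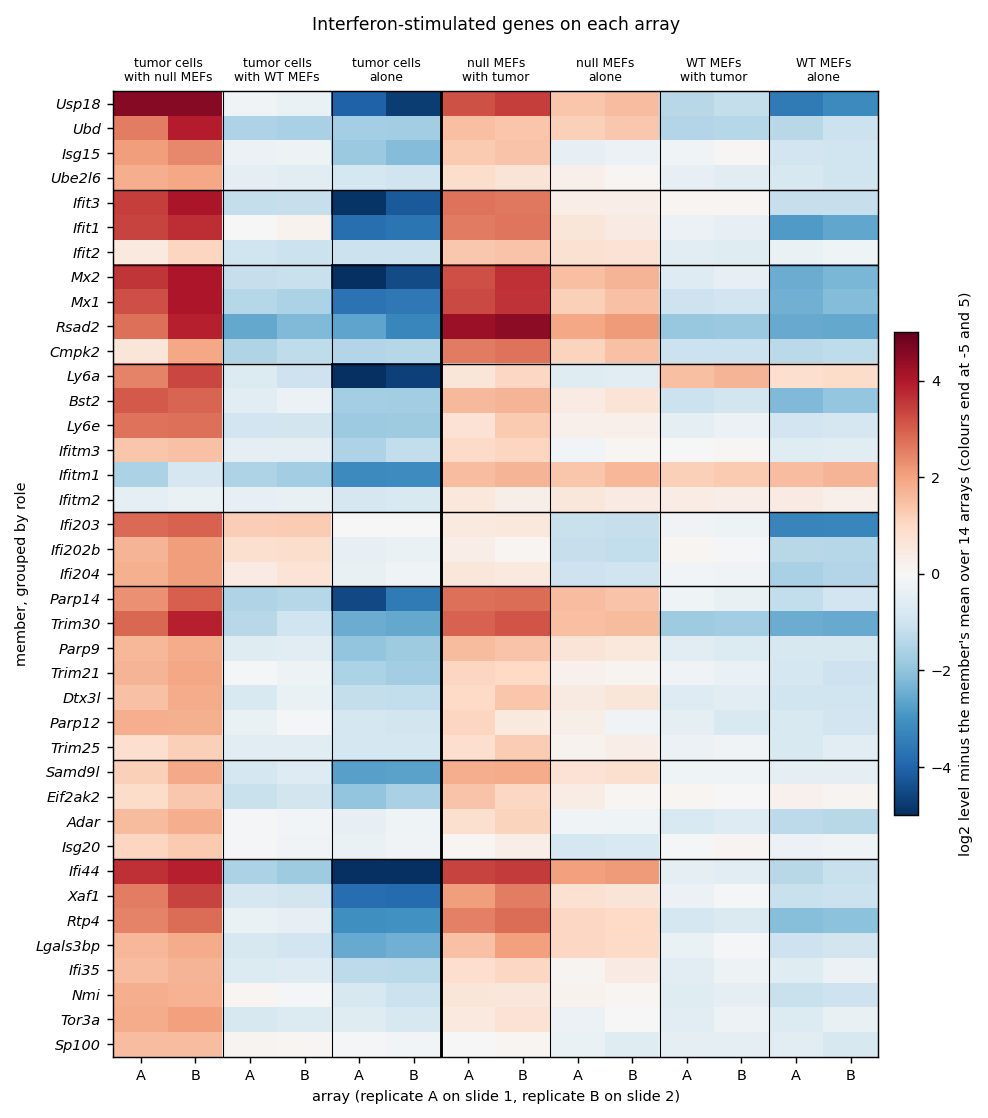
Heat map of the 39 members tested (rows, grouped by role) on the 14 arrays (columns), as log2 level minus the member's own mean over the 14 arrays, with colours ending at -5 and 5. The pair of arrays of tumor cells with null MEFs is the reddest for 28 of the 39 members, and that of tumor cells alone the bluest for 30. These counts were not taken over all genes.

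Several facts of the whole series bear on these values. Hsf1 measured 10.07 and 9.97 in null MEFs alone, against 12.01 and 11.69 in WT MEFs alone, and 10.52 and 10.67 in null MEFs with tumor cells, against 12.05 and 12.04 in WT MEFs with tumor cells. It was thus lower in the null MEFs, though above background there, and where its probe lies relative to the deletion is not known. Slide 1 held the A replicates of the 7 groups and slide 2 the B replicates. In each of the comparisons below, every member called had the same sign within slide 1 and within slide 2. The scanner files of replicate A of tumor cells with null MEFs and of tumor cells alone were faulty, with 36.4% and 32.03% of spots marked as outliers, against 0.534% to 5.98% on the other 12 arrays. The deposited value table showed no such fault, with a lowest correlation of 0.935 between any pair of arrays across genes, and is used throughout. The epithelial marker Epcam was not above background in any group and Cdh1 was not in tumor cells alone. The summed level of 12 epithelial markers was 16.5 to 16.6 (log2) in tumor cells alone and 9.82 to 10.1 in MEFs alone.

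The share of partner RNA in sorted cells was estimated from marker genes at least 32-fold higher in the partner. It cannot be told apart from a rise of those genes in the sorted cells themselves. The gain of each marker over the same cells alone was taken as a percent of its level in the partner. Tumor cells with null MEFs had a median gain over 252 markers of 9.29% of the level in null MEFs on replicate A and 23.0% on replicate B. Tumor cells with WT MEFs had 7.35% and 7.39% of the WT MEF level over 330 markers. Null MEFs with tumor cells had 9.08% and 9.51% of the tumor level over 90 markers, and WT MEFs with tumor cells 37.9% and 38.0% over 77. Counts for the co-cultured cells are given below also with this share taken off and the rest rescaled to the whole, an adjustment that for the MEF sorts was chosen after seeing the data. A rest below the lowest signal called above background on an array was set to that signal, here called the floor. In such sorted pools, fewer partner cells and less RNA per partner cell cannot be told apart.

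In tumor cells cultured with null MEFs, all 39 members tested were higher than in tumor cells alone. The background was 10.1% of 25896 genes higher and 9.6% lower (limma, adjusted p under 0.05). The median log2 difference of the members was 3.48, against -0.09 over all genes, and it was the same with 9 members that were not above background in tumor cells alone set at their bounds. Of the 39, 38 were at least 2-fold higher, 33 at least 4-fold and 18 at least 16-fold, and for all 39 both arrays with null MEFs lay above both arrays of the cells alone, as they did for 22.4% of all genes. In tumor cells cultured with WT MEFs, 28 of the 39 were higher than alone and 0 lower, with a median of 1.23. The background there was 7.04% of genes higher and 4.77% lower. At an unadjusted p under 0.05, 0 members were lower in either comparison (limma), where 19.0% of all genes were lower with null MEFs and 13.3% with WT MEFs. Both comparisons share the arrays of tumor cells alone, so they are given side by side. Fold changes of members not above background in tumor cells alone are bounds, the bright group's mean over the higher of the dim signal and the lowest signal called above background on each array.

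The ISG15 group holds Isg15, a ubiquitin-like protein joined to targets, Ube2l6, the enzyme that conjugates it, Usp18, which removes it and damps the interferon receptor, and Ubd, a second ubiquitin-like modifier. All 4 rose with null MEFs and 2 of 4 (Usp18 and Isg15) with WT MEFs. Usp18 measured 15.30 and 15.30 in tumor cells with null MEFs, 10.60 and 10.43 with WT MEFs, and 6.72 and 6.02 in tumor cells alone. The 3 groups did not overlap, and Usp18 was at least 487-fold higher with null MEFs and at least 17.7-fold higher with WT MEFs than alone. Ube2l6, with the smallest change of the group, measured 13.27 and 13.37 with null MEFs, 10.95 and 10.94 with WT MEFs, and 10.58 and 10.45 alone. It was high only on the arrays with null MEFs, by 2.81 ± 0.13 (SE, adjusted p = 1.47e-07, limma), and the 0.43 with WT MEFs did not pass the test. Isg15 was higher by 4.26 with null MEFs and by 1.74 with WT MEFs. Ubd was at least 31.1-fold higher with null MEFs and was not above background with WT MEFs or alone.

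The IFIT proteins include binders of RNA whose 5′ end lacks the host's cap marks. All 3 rose with null MEFs and 2 of 3 with WT MEFs. Ifit3 measured 14.61 and 15.23 with null MEFs, 9.97 and 9.99 with WT MEFs, and 6.27 and 6.97 in tumor cells alone. The difference was 8.29 ± 0.22, or 313-fold, with null MEFs and 3.35 ± 0.22, or 10.2-fold, with WT MEFs (SE; adjusted p = 4.81e-09 and 1.06e-05, limma). Ifit1 was higher by 7.23 with null MEFs and by 3.81 with WT MEFs. Ifit2 stood apart from its relatives, at 11.69 and 12.25 with null MEFs, 10.21 and 10.12 with WT MEFs, and 10.13 and 10.13 alone. Its level alone was thus well above background already, and its difference was 1.84 with null MEFs and 0.04, not called, with WT MEFs.

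The MX GTPases Mx1 and Mx2 trap viral particles, Rsad2 (viperin) makes a nucleotide that stops viral RNA synthesis, and Cmpk2 is a nucleotide kinase encoded beside it. None of the 4 was above background in tumor cells alone. Mx2 measured 14.19 and 14.67 with null MEFs, 9.49 and 9.51 with WT MEFs, and 5.52 and 6.14 alone. It was at least 387-fold higher with null MEFs and at least 12.7-fold higher with WT MEFs, and the groups did not overlap. Mx1 was at least 155-fold and at least 4.39-fold higher. Rsad2 was above background in tumor cells with null MEFs and in neither of the other tumor groups, and Cmpk2 was so on 1 of the 2 arrays with WT MEFs and not in tumor cells alone. Rsad2 was at least 71.2-fold higher with null MEFs than alone. Cmpk2 measured 6.96 and 8.31 with null MEFs, 4.87 and 5.08 with WT MEFs, and 4.90 and 4.93 alone, and was at least 6.6-fold higher with null MEFs, where its replicates lay furthest apart.

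Among the membrane proteins, Bst2 (tetherin) holds budding virus at the cell surface, the IFITM proteins hinder fusion of entering virus, and Ly6a (Sca-1) and Ly6e are anchored surface proteins. All 6 tested rose with null MEFs and all 6 with WT MEFs. Ly6a measured 14.21 and 15.07 with null MEFs, 11.05 and 10.67 with WT MEFs, and 6.74 and 7.05 alone. The difference of 7.74 ± 0.26 with null MEFs was 214-fold, and that of 3.96 ± 0.26 with WT MEFs was 15.6-fold (SE; adjusted p = 1.93e-08 and 8.23e-06, limma). Ifitm2 was the least changed member, at 14.09 and 14.23 with null MEFs, 14.15 and 14.17 with WT MEFs, and 13.69 and 13.78 alone. Both co-cultures lay above the cells alone, by 0.43 and 0.42, and they overlapped each other. Ifitm1, not above background alone, was at least 3.94-fold higher with null MEFs and at least 2.92-fold higher with WT MEFs. Its gain, 7.39% on replicate A and 14.9% on replicate B, was the lowest of the 39 members. With the MEF share taken off, the call of Ifitm2 was lost in both comparisons, and Ifitm1 stood at -0.67 with null MEFs against alone (adjusted p = 0.0166, limma). On replicate B the MEF share exceeded the measured level of Ifitm1, which was set to the floor. As Ifitm1 was not above background in tumor cells alone either, no lower expression can be read from this. Ifitm3 (2.79 and 0.93), Bst2 (4.71 and 1.30) and Ly6e (4.53 and 0.87) were higher with null and with WT MEFs.

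The IFI200 proteins bind DNA, some of them as sensors. The 3 tested members were among the most even of the set, higher by 2.23 to 2.88 with null MEFs and by 0.83 to 1.25 with WT MEFs. Ifi203 measured 12.75 and 12.87 with null MEFs, 11.16 and 11.21 with WT MEFs, and 9.96 and 9.90 alone. Ifi204 measured 16.29 and 16.59 with null MEFs, 14.90 and 15.17 with WT MEFs, and 14.12 and 14.30 alone. For both genes the 3 groups kept the same order with no overlap. Ifi202b was higher by 2.27 and 1.23.

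Parp9 and Dtx3l form a complex that modifies ubiquitin, Parp12 and Parp14 attach ADP-ribose to proteins, and the TRIM proteins here are E3 ubiquitin ligases or their relatives. All 7 rose with null MEFs and 5 of 7 with WT MEFs. Parp14 measured 13.06 and 13.77 with null MEFs, 9.26 and 9.34 with WT MEFs, and 6.25 and 7.24 alone, a difference of 6.67 with null MEFs and 2.56 with WT MEFs. Trim25, the ligase of the RNA sensor RIG-I, had the smallest change, at 15.83 and 16.19 with null MEFs, 14.46 and 14.43 with WT MEFs, and 14.11 and 14.10 alone. Its 1.90 with null MEFs passed the test and its 0.34 with WT MEFs did not. Trim30 was at least 59.7-fold and at least 2.5-fold higher. Parp9 (3.64 and 1.33), Trim21, an intracellular antibody receptor (3.48 and 1.49), and Dtx3l (2.85 and 0.65) were higher in both, and Parp12 with null MEFs (2.71), its 0.70 with WT MEFs not passing.

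Eif2ak2 (PKR) stops translation on double-stranded RNA, Adar edits such RNA, Isg20 is an exonuclease and Samd9l restrains poxviruses and cell growth. All 4 tested rose with null MEFs and 2 of 4 with WT MEFs. Samd9l measured 12.93 and 13.62 with null MEFs, 10.85 and 11.09 with WT MEFs, and 9.01 and 9.07 alone, a difference of 4.24 and 1.93. Isg20 measured 14.66 and 14.87 with null MEFs, 13.49 and 13.39 with WT MEFs, and 13.23 and 13.41 alone. The arrays with WT MEFs and alone overlapped, and the difference was 1.45 with null MEFs and 0.12, not called, with WT MEFs. Eif2ak2 (2.93 and 0.78) passed in both and Adar (2.00 and 0.21) with null MEFs only by its own test, and the gap between partners is tested below.

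Of the other members, Ifi44 had the largest difference of all. It measured 14.82 and 15.06 with null MEFs, 9.61 and 9.41 with WT MEFs, and 4.97 and 5.68 alone, and was at least 784-fold higher with null MEFs and at least 18.2-fold higher with WT MEFs. Sp100, a protein of nuclear bodies, had the smallest of this group, at 8.56 and 8.56 with null MEFs, 7.16 and 7.10 with WT MEFs, and 6.96 and 6.87 alone. It was higher by 1.64 with null MEFs, and its 0.22 with WT MEFs did not pass. Xaf1, a pro-apoptotic factor (6.78 and 2.93), Rtp4, a receptor chaperone (5.68 and 2.66), and Lgals3bp, a secreted galectin-binding protein (4.20 and 1.57), were higher in both. So were Ifi35 (2.95 and 0.66) and its partner Nmi (2.71 and 0.96). Tor3a, a torsin family member, was higher by 2.65 with null MEFs and stood at -0.03, not called, with WT MEFs.

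**Figure D2:**
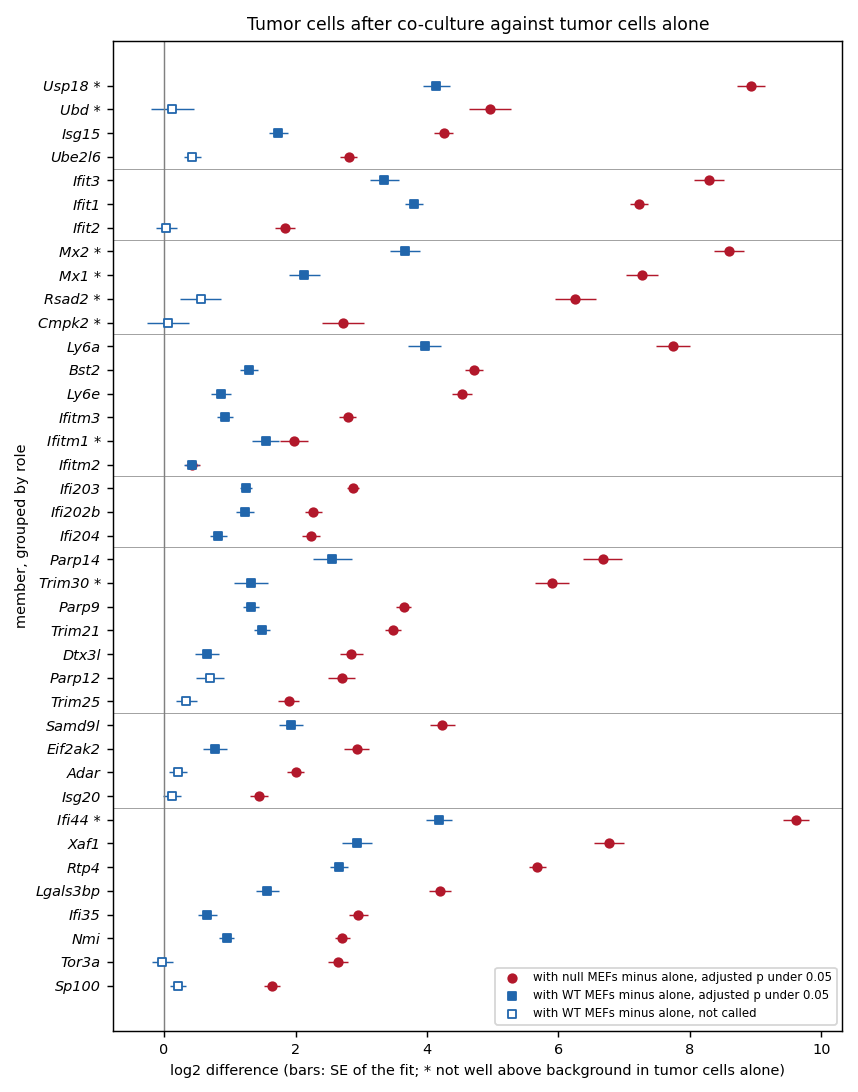
Log2 difference from tumor cells alone of each member (rows, grouped by role) in tumor cells with null MEFs (circles) and with WT MEFs (squares), with the SE of the fit as bars, open symbols not called and * marking members not well above background in tumor cells alone. All 39 circles lie at 0.43 or higher, and the 11 open symbols are squares.

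Tumor cells co-cultured with null and with WT MEFs were compared directly, where the partner's genotype and stock cannot be told apart. With null MEFs, 37 of the 39 members were higher than with WT MEFs and 0 lower, with a median of 2.38, against 5.38% of all genes higher and 4.11% lower. At an unadjusted p under 0.05, 0 members and 12.4% of all genes were lower (limma). The 2 not called were Ifitm1 (0.43 ± 0.21) and Ifitm2 (0.01 ± 0.11, SE). The largest differences were those of Rsad2, at least 51.9-fold, Ifi44 (5.43), Mx1 (5.14), Ifit3 (4.94) and Mx2 (4.92). The 11 members not called with WT MEFs against alone all passed here, among them Tor3a (2.67), Ube2l6 (2.38), Adar (1.79) and Ifit2 (1.81). Of the 39, 37 were at least 2-fold higher and 9 at least 16-fold. Over the members, the log2 difference from tumor cells alone with WT MEFs had a median of 35.2% of that with null MEFs.

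Replicate B of tumor cells with null MEFs was the higher of its pair for 34 of the 39 members, by a median of 0.30. The estimated MEF share was also larger on that array. The summed level of 15 fibroblast markers was 16.6 and 17.8 (log2) in tumor cells with null MEFs, 16.9 and 16.9 with WT MEFs, and 14.9 and 15.1 alone. Of those 15, 8 were higher with null MEFs and 13 with WT MEFs than alone, and Lum and Thy1 were not above background with null MEFs. The gain of the members over tumor cells alone had a median of 115.5% of what null MEFs held on replicate A and 152.5% on replicate B, and 37 of the 39 exceeded the upper quartile of the markers on each array. With WT MEFs it was 37.4% and 38.8% of the WT MEF level, and 36 and 33 of the 39 exceeded that quartile. The counts were not taken over all genes. The markers were picked as at least 32-fold higher in the partner and the members were not. A gene already near its partner's level can pass that quartile with a small rise. With the MEF share taken off, 37 members were higher and 1 (Ifitm1) lower with null MEFs than alone, 24 higher and 0 lower with WT MEFs than alone, and 37 higher and 1 (Ifitm1, by 1.17) lower between the partners. The lower calls of Ifitm1 rest on a level set to the floor on replicate B with null MEFs, and no lower expression can be read from them. The 4 calls lost with WT MEFs were Dtx3l, Eif2ak2, Ifitm1 and Ifitm2.

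**Figure D3:**
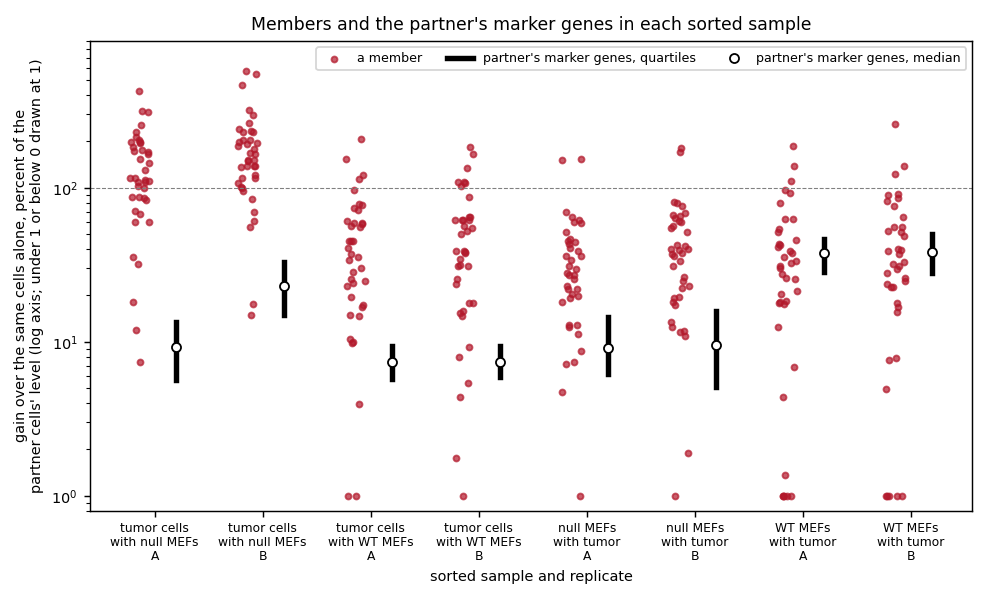
Gain of each member over the same cells alone, as a percent of the partner cells' level (log axis; points under 1 or below 0 drawn at 1), on the 8 arrays of sorted cells, beside the quartiles and median of the partner's marker genes. In tumor cells with null MEFs the members' medians are 115.5% and 152.5%, against marker medians of 9.29% and 23.0%, whereas in WT MEFs with tumor cells they are 31.2% and 32.1%, against 37.9% and 38.0%.

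Without tumor cells, null MEFs already held higher levels than WT MEFs. Of the 39 members, 31 were higher and 2 lower in null MEFs alone than in WT MEFs alone, with a median of 1.20. The null and WT MEFs differed widely, with 17.9% of all genes higher and 15.9% lower. Usp18 measured 12.16 and 12.30 in null MEFs alone, against 7.24 and 7.57 in WT MEFs alone, and Rsad2 measured 9.83 and 10.03 in null MEFs, against 5.36 and 5.33 in WT MEFs. Neither overlapped, and Usp18 was higher by 4.83 ± 0.21 (SE, adjusted p = 7.75e-08, limma) and Rsad2 at least 24.0-fold. Trim30 (4.06), Mx2 (3.99), Mx1 (3.61), Ifi44 (3.34) and Ifit1 (3.19) followed, Mx1 being above background on 1 of the 2 arrays of WT MEFs alone. Isg15 itself differed by 0.63 only. The exceptions were Ly6a, at 11.11 and 11.19 in null MEFs, against 12.56 and 12.62 in WT MEFs, and Isg20, at 12.68 and 12.81, against 13.27 and 13.36. Those 2 were lower in null MEFs, by 1.44 and 0.57 on the log2 scale. Eif2ak2 (0.07), Ifi202b (0.22), Ifitm1 (-0.09), Ifitm2 (0.15), Sp100 (0.19) and Tor3a (0.36) were not called.

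MEFs of both genotypes held higher levels of many members after co-culture with tumor cells. In null MEFs, 30 of the 39 were higher with tumor cells than alone and 0 lower, with a median of 1.06, where 2.81% of all genes were higher and 0.332% lower. In WT MEFs, 18 of the 39 were higher and 0 lower, with a median of 0.64, where 6.31% of all genes were higher and 4.2% lower. At an unadjusted p under 0.05, 0 members were lower in MEFs of either genotype (limma), against 4.78% of all genes in null MEFs and 12.2% in WT MEFs. Ifit3 measured 13.86 and 13.81 in null MEFs with tumor cells, against 11.47 and 11.49 in null MEFs alone, and 11.24 and 11.24 in WT MEFs with tumor cells, against 10.01 and 10.00 in WT MEFs alone. The differences were 2.35 in null MEFs and 1.23 in WT MEFs, with no overlap in either. In null MEFs, Rsad2 (2.33), Mx1 (2.15), Ifit1 (2.13) and Usp18 (1.86) were next. In WT MEFs, Ifi203 (3.07), Ifit1 (2.35), Usp18 (2.06) and Mx2 (1.86) had the largest differences. The summed level of 12 epithelial markers was 14.6 and 15.2 in null MEFs with tumor cells, against 9.82 and 10.0 in null MEFs alone, and 16.2 and 16.4 in WT MEFs with tumor cells, against 9.99 and 10.1 in WT MEFs alone. Such a sum follows its brightest genes. Of 11 tested, 1 was higher and 0 lower in null MEFs (median 0.016), and 3 higher and 1 lower in WT MEFs (median -0.051). With the tumor share taken off, 22 members were higher in null MEFs with tumor cells and 16 in WT MEFs with tumor cells. In WT MEFs, Usp18, at 0.46 (adjusted p = 0.386, limma), Bst2, Ifi202b, Adar and Nmi then lost their calls, while 4 other members gained one. Ifi203 stood at -1.99 (adjusted p = 1.24e-06, limma), but the tumor share exceeded its measured level on both arrays of WT MEFs with tumor cells. Both values were thus set to the floor, and no lower level can be read from that result. Without replicate B of WT MEFs with tumor cells, or without replicate A of WT MEFs alone, 11 of the 39 were called in WT MEFs.

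**Figure D4:**
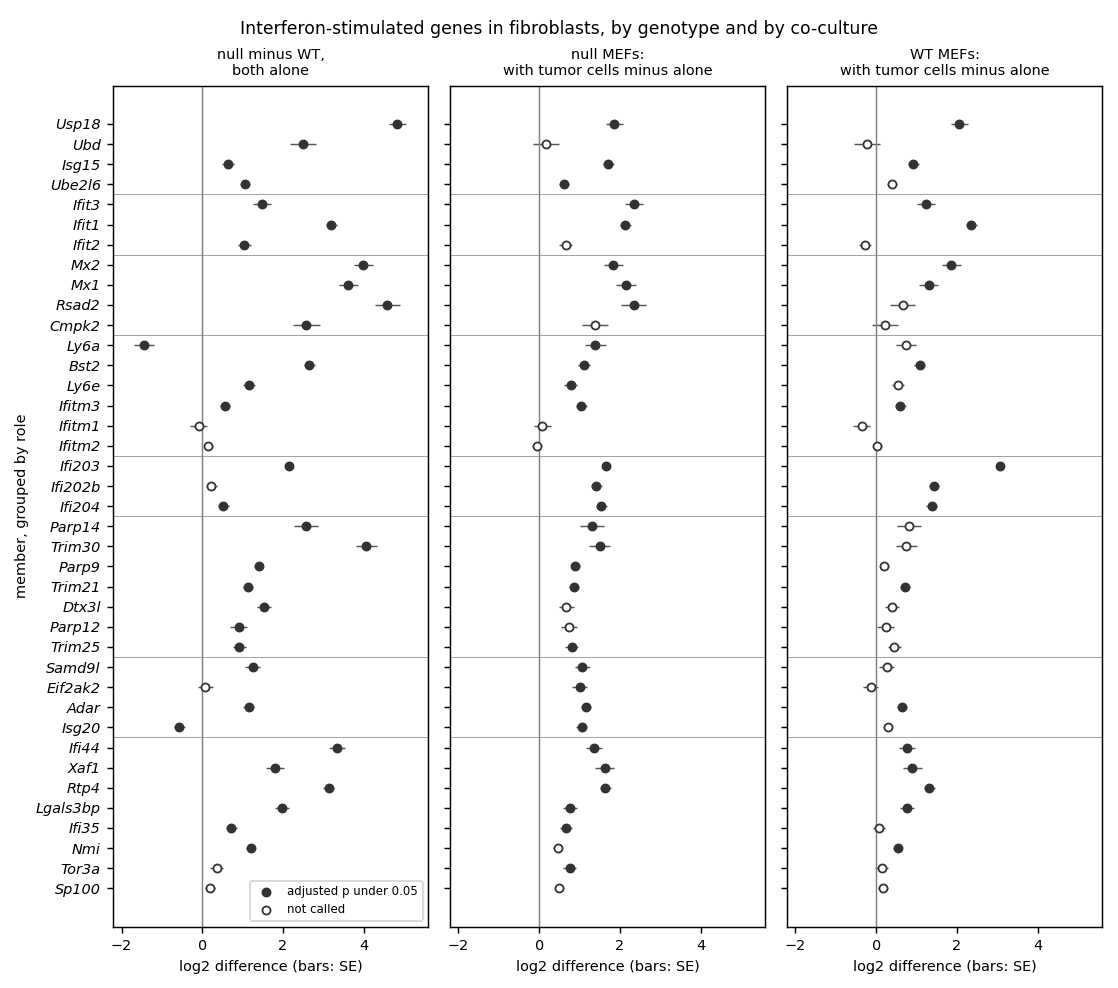
Log2 difference of each member (rows, grouped by role) between null and WT MEFs grown alone (left), and between MEFs with tumor cells and alone, for null MEFs (middle) and WT MEFs (right), with the SE of the fit as bars and open circles not called. The left panel reaches 4.83 (Usp18) and -1.44 (Ly6a), and the middle and right panels hold 30 and 18 filled circles.

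Among MEFs cultured with tumor cells, 34 members were higher and 1 lower in null than in WT MEFs, with a median of 1.66, where 14.7% of all genes were higher and 14.8% lower. With the tumor share taken off, 35 were higher and 1 lower. Rsad2 led with 12.17 and 12.35 in null MEFs, against 6.0 and 6.01 in WT MEFs, a difference of 6.26 ± 0.31 (SE, adjusted p = 5.08e-07, limma). Trim30 (4.81), Usp18 (4.63), Mx1 (4.46), Mx2 (3.96) and Ifi44 (3.93) followed. Ly6a was lower in null MEFs by 0.79 on the log2 scale (adjusted p = 0.0402, limma), a call that was lost with no filter on dim genes, without either replicate of WT MEFs with tumor cells, WT MEFs alone or null MEFs alone, and without replicate A of null MEFs with tumor cells. Of the rest, Ifi202b (0.20), Isg20 (0.19), Ifitm1 (0.35) and Ifitm2 (0.07) were not called.

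Whether the MEF response to tumor cells differed between genotypes was tested as an interaction. Of the 39 members, 1 (Eif2ak2, 1.14 ± 0.26, adjusted p = 0.048) responded more in null MEFs and 1 (Ifi203, -1.42 ± 0.13, adjusted p = 0.000194, SE, limma) less, where 1.07% of all genes were higher and 1.96% lower. Eif2ak2 measured 13.09 and 12.70 in null MEFs with tumor cells, against 12.03 and 11.76 in null MEFs alone, and 11.74 and 11.64 in WT MEFs with tumor cells, against 11.86 and 11.79 in WT MEFs alone. Only the null MEF arrays with tumor cells stood out. Ifi203 measured 10.42 and 10.47 in null MEFs with tumor cells, against 8.83 and 8.77 in null MEFs alone, and 9.75 and 9.69 in WT MEFs with tumor cells, against 6.65 and 6.66 in WT MEFs alone. Its WT MEFs alone lay below the other 3 groups. With the tumor share taken off, the interaction of Eif2ak2, at 0.75, was not called (adjusted p = 0.288, limma). That of Ifi203 stood at 2.83 (adjusted p = 6.7e-06, limma), a value set by the floor on both arrays of WT MEFs with tumor cells. No direction can be read from it. With the slide as a block, 4 members were called. At an unadjusted p under 0.05, 15 members responded more in null MEFs and 1 less (limma), where 6.02% of all genes were higher and 6.68% lower. The difference over the 39 members had a median of 0.44, against 0.001 over all genes. It was above 0 for 32 of the 39, a count not taken over all genes. Tumor markers gained 9.08% and 9.51% of their tumor level in sorted null MEFs, and 37.9% and 38.0% in sorted WT MEFs. The part of this in the median was not tested.

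The sorted tumor cells were also set against the MEFs sorted from co-culture, as a comparison of levels of the same gene between cell types. The labels give the mitomycin C treatment for MEFs that partnered profiled tumor cells, so the MEFs measured here, whose level is also the partner level above, came from other cultures, and that difference cannot be told apart from the cell type. With null MEFs, 22 of the 39 members were higher in tumor cells than in null MEFs and 5 lower, with a median of 0.69, where 20.6% of all genes were higher and 22.2% lower. Ifi203 (2.36), Ly6a (2.10), Ubd (1.80), Ly6e (1.72) and Ifi202b (1.67) were highest relative to the null MEFs. The 5 lower in tumor cells were Ifitm1 (-2.81), Cmpk2 (-1.39), Rsad2 (-1.06), Ifitm2 (-0.81) and Ifit2 (-0.62). With WT MEFs, 10 of the 39 were higher in tumor cells than in WT MEFs and 13 lower, with a median of -0.29, where 16.9% of all genes were higher and 14.8% lower. Ifi203 (1.46), Usp18 (1.05) and Ifi202b (0.83) were higher in tumor cells, and Ifitm1 (-2.89), Ly6a (-2.47), Ifit3 (-1.26), Parp14 (-1.17) and Ifi44 (-1.17) lower. Ly6a thus lay above the MEF level in tumor cells with null MEFs and below it in tumor cells with WT MEFs. Without either replicate of tumor cells with WT MEFs or of WT MEFs with tumor cells, the number called in the WT pair was 14 or 15. With the MEF share taken off, 23 members were higher and 5 lower in the null pair and 10 higher and 12 lower in the WT pair. With the tumor share taken off, 22 were higher and 5 lower in the null pair and 12 higher and 18 lower in the WT pair.

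**Figure D5:**
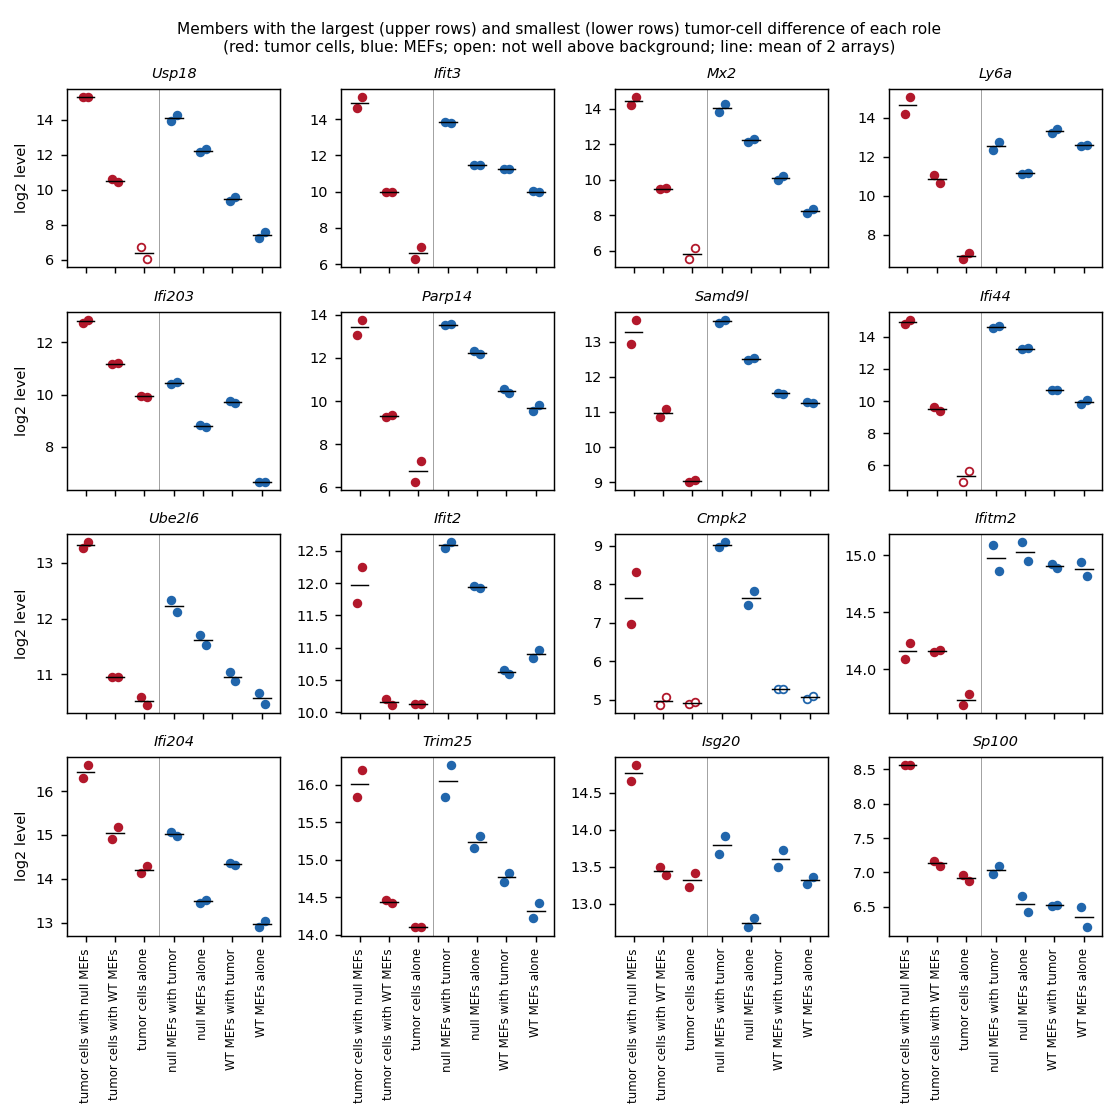
Log2 levels on both arrays of each of the 7 groups for 16 members, the one with the largest (upper rows) and the one with the smallest (lower rows) difference between tumor cells with null MEFs and alone in each role, with the mean as a line and open points not well above background. Tumor cells with null MEFs are the highest tumor group in every panel except Ifitm2, where they share the top with tumor cells with WT MEFs (14.09 and 14.23, against 14.15 and 14.17).

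Several members can be read by more than 1 probe. For 11 members with 24 probes, the scanner files gave each probe apart, over the 12 sound arrays. The sound arrays hold replicate B only of tumor cells with null MEFs and of tumor cells alone. Probe differences between those groups thus have no replication, and MEF markers gained 23.0% on that array with null MEFs. In tumor cells with null MEFs against alone, the probes of all 11 had the same sign, though not the same size: the 2 of Xaf1 gave 6.33 and 10.73, and the 2 of Cmpk2 gave 6.48 and 4.21. In tumor cells with WT MEFs against alone, the 2 probes of Isg20 differed in sign (0.05 and -0.11). For the response of WT MEFs the 2 probes of Cmpk2 differed (1.57 and -0.40), and the 4 of Ifi203 ranged over 2.22 to 5.11. The 2 probes of Cmpk2 were above background on 5 and 7 of the 12 arrays. Their differences thus rest in part on signal near background.

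The genes that transmit the interferon signal were higher in part. Among the STAT and IRF factors, 6 of 10 were higher with null MEFs and 4 of 10 with WT MEFs than in tumor cells alone, and 5 of 10 higher with null than with WT MEFs. Irf7, the factor that amplifies interferon production, measured 14.10 and 14.64 in tumor cells with null MEFs, 8.66 and 8.63 with WT MEFs, and 5.45 and 6.24 alone, with no overlap. It was higher by 8.52 and 2.80. Stat2 (4.12 and 1.32) and Irf9 (3.83 and 1.72), which take part in binding the ISRE, rose with both partners. In null MEFs alone, Irf7 (3.11) and Irf9 (1.52) were higher than in WT MEFs alone, and Stat2 (0.10) was not called.

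Of the 14 interferon ligands on the array, 4 were not above background in tumor cells with null MEFs, 6 with WT MEFs and 7 in tumor cells alone. Of 10 tested, 1 was higher with null MEFs than alone and 0 with WT MEFs (limma), where 0 passed an unadjusted p under 0.05 as well. Ifnb1, which encodes interferon beta, measured 6.64 and 7.38 in tumor cells with null MEFs, 5.62 and 5.88 with WT MEFs, and 4.85 and 6.08 alone. The first pair lay above the other arrays, and as Ifnb1 was not above background in the other tumor groups, it was at least 2.92-fold higher than alone (adjusted p = 0.00975) and at least 2.4-fold higher than with WT MEFs (adjusted p = 0.042, limma). In MEFs it measured 6.16 and 6.22 in null MEFs with tumor cells, 5.66 and 5.81 in null MEFs alone, 5.39 and 5.46 in WT MEFs with tumor cells, and 5.18 and 5.02 in WT MEFs alone, and no MEF comparison of it was called. Of 9 receptor and kinase genes, 2 were higher with null MEFs than alone, Il28ra, at least 9.19-fold, and Ifnar2 (0.53). Il28ra, the interferon lambda receptor chain, was at least 85.6-fold higher in null MEFs alone than in WT MEFs alone, where it was not above background, and measured 7.96 and 8.82 in tumor cells with null MEFs, against 5.16 and 5.23 in tumor cells alone. Its mean was 11.42 in null MEFs with tumor cells, whose markers gained 9.29% and 23.0% of their level in those tumor cells. The part of carried-over MEF RNA in the gain of Il28ra was not tested.

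Other interferon-responsive genes were higher too. Of 9 OAS and RNase L genes, which make and use the signal that degrades RNA, 9 were higher with null MEFs and 7 with WT MEFs than alone, with Oas1a (7.15), Oasl1 (5.19) and Oas2, not above background alone and at least 691-fold higher, among those with null MEFs. Of 13 nucleic acid sensors, 6 were higher with null MEFs and 3 with WT MEFs, among them with null MEFs Zbp1 (7.47), a sensor of left-handed nucleic acid, Dhx58 (4.74), Ddx58 (3.58) and Ifih1, at least 12.4-fold, which encode the RIG-I-like receptors. Of 8 tested genes listed as biased to interferon gamma, 7 were higher with null MEFs and 2 with WT MEFs, with Cd74 (5.95) and Gbp2 (5.25) leading with null MEFs. H2-Aa, H2-Ab1, H2-Eb1 and Cxcl9 were not above background alone or with WT MEFs. Their bounds with null MEFs against alone ran from 1.51-fold (H2-Aa) to 6.92-fold (H2-Ab1). Ciita, also listed, was not above background in any group and was not tested. Irf1 is on this list and among the STAT and IRF factors. Of 9 NF-kB targets, 4 were higher with null MEFs, and 1 higher and 2 lower with WT MEFs.

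Markers of other cell types were counted in the same comparisons with tumor cells alone. Of 5 plasmacytoid dendritic and 3 T and NK markers, 0 were called in either (limma), and at an unadjusted p under 0.05 1 dendritic marker was lower with null MEFs. Of 9 macrophage and leukocyte markers, Cd68 (0.65) and Fcer1g (0.52) were higher with null MEFs and Fcer1g (1.22) with WT MEFs, and Lyz2 was not above background in any tumor group. Of 3 endothelial markers, Vwf, not above background in tumor cells alone, was at least 2.13-fold higher with null MEFs and at least 1.62-fold with WT MEFs. Of 11 epithelial markers, 1 was higher and 1 lower with null MEFs, and 0 higher and 2 lower with WT MEFs. The part of these cell types in the members' levels was not tested.

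Promoter letters and response can be set side by side for 29 tested members with a RefSeq start. The 8 with the ISRE letters, at any listed start, had a median log2 difference of 5.31 with null MEFs against alone, and the 21 without them 2.79. The ranges were 0.43 to 8.29 with the letters and 1.45 to 9.62 without. Ifitm2, whose promoter is shown above, was at the low end of those with the letters, and Ifi44 at the high end of those without. This is a description of these promoters, with no test.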

How the data were processed

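Expression was measured on 14 Agilent 1-colour arrays (design 028005, build mm9, per the file headers). The headers name Feature Extraction 10.1.1.1 and the submitters' processing notes 9.1. The authors deposited 1 log2 value per gene name and array, with the scaling between arrays not given in the sources used here. Against the 12 sound scanner files, these deposited log2 values followed the mean over a gene's spots (median correlation 0.984) more closely than 1 probe (0.898). The intensity values the authors deposited per spot, with their flags for signal well above background, set the filter and served as alternatives, and 0 spots of the members were saturated. The number of arrays limits the precision.

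A gene was tested where a probe was well above background on both arrays of at least 1 group, leaving out the flags of the 2 faulty files. limma 3.58.1 (R 4.3.3) was fitted to 7 group means over 25896 genes, with 7 residual degrees of freedom and Benjamini-Hochberg adjustment, and 0.05 as threshold. The script was tested on simulated data. Replicates of the same letter share a slide and were not blocked, and the block was an alternative. The members, their roles and the other lists were chosen with earlier results of these data known. By a rule set for the text, each member may be named, values per array are printed for the member with the largest and the one with the smallest difference of each role, and up to 4 genes of another list are named per comparison, those with the smallest adjusted p, with a few others named after their values were seen. Promoters are RefSeq's on GRCm38.p6 and no coordinates of the arrays' build are used. Results for a withheld item are not reported here.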

Additional observations from a re-analysis of the deposited data

Results flagged for a closer look

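The response of Ifi203 to tumor cells differed between MEF genotypes by -1.42 (null minus WT), a difference tested as an interaction. In that test 1 of the 39 members was higher and 1 lower (2.56% each), where 1.07% of all genes were higher and 1.96% lower. The scanner files' 4 probes of Ifi203 gave 2.22 to 5.11 for the WT MEF response. In WT MEFs sorted from co-culture, tumor markers gained 37.9% and 38.0% of their level in the tumor cells. Tumor cells with WT MEFs measured 11.16 and 11.21 for Ifi203. With the tumor share taken off, the difference stood at 2.83. There the share exceeded the Ifi203 level on both arrays of WT MEFs with tumor cells, which were set to the floor. No direction can be read from that value. The response of Eif2ak2 differed by 1.14 in the same test. Its call was lost without replicate A or B of several groups and with the tumor share taken off. It was also lost with the MEF share taken off, which changes no MEF array and acts here only through the shared estimate of the spread and the adjustment. Other causes of these differences were not tested.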

How the results depend on the processing

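Counts of members called were recomputed under each alternative. Replicates of a letter share a slide, and with the slide as a block the counts were 39 for tumor cells with null MEFs against alone, 30 with WT MEFs against alone, 37 between partners, 36 and 21 for the response of null and of WT MEFs, 34 and 35 for null against WT MEFs alone and with tumor cells, 28 and 24 for tumor cells against null and WT MEFs, and 4 for the interaction. Leaving out 1 replicate gave, in the same order, 38 to 39, 23 to 30, 37 to 38, 20 to 32 and 11 to 20, 31 to 33 and 33 to 35, 25 to 27 and 14 to 25, and 1 to 9 members. The interaction count was 9 without either replicate of tumor cells with null MEFs and 9 with each cell type fitted alone, 7 after normexp and quantile normalization of the sound scanner files, and 1 with median centring, no filter, the 12 sound scanner files, either partner share taken off or an adjusted p under 0.01. It was also 1 without either replicate of tumor cells with WT MEFs, WT MEFs with tumor cells, WT MEFs alone or null MEFs alone, or without replicate A of null MEFs with tumor cells. Asking also for a 2-fold difference left 10 members in WT MEFs, 17 between tumor cells and null MEFs and 8 between tumor cells and WT MEFs, the last at 14 with an adjusted p under 0.01. With all 14 scanner files, the 2 faulty ones included, 7 members were called with null MEFs against alone, 1 between partners and 0 in the other 8 comparisons (limma). There, Trim30 in tumor cells with WT MEFs against alone stood at -0.077, and Ifi202b (-1.02), Trim21 (-0.23), Ifi203 (-0.0775), Nmi (-2.19) and Isg15 (-0.58) turned between partners. Between tumor cells and null MEFs, Ifitm3 (-0.86), Ifit3 (-0.97), Ifi35 (-0.96), Cmpk2 (0.49), Trim21 (-1.48), Ube2l6 (-1.06), Nmi (-2.63), Isg15 (-1.94) and Usp18 (-0.76) turned with all 14 files, and Rtp4 (0.65), Parp14 (0.55) and Trim25 (0.60) with the 12 sound ones. With the MEF share taken off, Ifitm1 stood at -0.67 with null MEFs against alone and at -1.17 between partners. Its level with null MEFs was there set to the floor on replicate B, so no reversal can be read from these values. With the tumor share taken off, Ifi203 stood at -1.99 in WT MEFs and at 2.83 in the interaction, where it was the 1 member called. Both values were set by the floor in WT MEFs with tumor cells, so no reversal can be read from them. The median of all genes with null MEFs against alone moved to -0.12 with median centring and to -0.20 in the 12 sound scanner files. Leaving out an array of tumor cells, fitting each cell type alone or taking off the MEF share leaves the MEF values of the interaction as they were. Its count can then move only through the shared estimate of the spread and the adjustment. The turns with all 14 scanner files came with the 2 faulty files. The 12 sound files hold replicate B only of tumor cells with null MEFs and of tumor cells alone. The cause of the other changes was not tested. With 2 arrays a group, 7 residual degrees of freedom and 2 faulty scanner files, levels near background are only bounds.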
